A study of Mus musculus with 8 samples.

Results

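The 35 genes described here were the transcription factor gene Myc and 34 genes of the nucleolus, which supply RNA polymerase I, the small nucleolar ribonucleoproteins (snoRNPs) and the factors that assemble ribosomal precursors. They were chosen by symbol, and all 35 were matched by Entrez number to rows of the deposited table of 27179 genes. All 35 passed edgeR's filter on low counts, as did 13364 genes in all. The leukaemia cells of mice on the diet free of branched-chain amino acids (BCAA) and on the standard diet did not differ past the threshold in any of the 35. Of all tested genes only 0.756% passed it in edgeR, so the lack of a call does not set the members apart. For 33 of the 35 the 95% interval of the difference excluded a 1.5-fold change in either direction. The same held for 51.0% of all tested genes. It held for 74.7% of those averaging 10 CPM (scaled read count) or more, so most well-expressed genes shared this.

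The cells were mouse acute myeloid leukaemia cells driven by the MLL-AF9 fusion and marked with green fluorescent protein (GFP) and luciferase, labelled wild type. They came from a sick mouse, were expanded in culture, and were injected into unconditioned male mice of 8 to 10 weeks, so all libraries share that leukaemia. Mice of one group ate the BCAA-free diet, without leucine, isoleucine and valine (3 libraries, labelled BCAA 5+3), and mice of the other a diet with the standard amino acids (5 libraries, labelled AA 5+3). Every mouse had received 5+3 chemotherapy, namely cytarabine at 100 mg/kg daily for 5 days and doxorubicin at 3 mg/kg daily for the first 3, and living GFP-positive marrow cells were sorted when the response was greatest. No library from mice without chemotherapy was analysed here, so the values describe treated cells only.

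MYC is a transcription factor that pairs with MAX on the E-box sequence CACGTG and is known for raising the genes of ribosome production. In the nucleolus, RNA polymerase I transcribes ribosomal RNA as a long precursor, snoRNPs guide its methylation and pseudouridylation, and assembly factors cut and fold it into the small and the large subunit. The pathway is of interest after amino acid restriction because leucine sensing through mTORC1 controls ribosome production, and after chemotherapy because doxorubicin acts on DNA and on RNA polymerase I transcription.

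RefSeq promoters (GRCm38.p6) were found for 30 of the 35 members, as windows of 300 bases, of which 250 lie before the transcription start and 50 after it. The E-box CACGTG, which reads the same on both strands, occurred in 7 of these 30 genes (23.3%), against 11.9% of the 10034 tested genes with a promoter and 8.09% of all 27025 genes with one. These were Rrn3, Nop2, Ltv1, Utp20, Pes1, Tsr1 and Wdr43. Only Rrn3 and Nop2 had a whole CACGTG in the 250 bases before the start. In the others it reached into or lay within the 50 bases after it. Myc, Npm1, Fbl, Bop1 and Rrp12 had no promoter entry and were not searched. The related sequence CACGCG, searched also as CGCGTG, occurred in 8 of 30 (26.7%), against 19.4% of tested genes. Such a match is only a description of the letters. The 250 bases before the start are given for Rrn3, which has 2 E-boxes there, and Nop2, which has 1, because they carry the motif most often ascribed to MYC. Polr1a, whose libraries separated by diet and which has no CACGTG in the window, stands beside them. Polr1a was not called, and 4.17% of all tested genes separated upward in this way. Whether the motif goes with the diet difference was not tested. Capitals mark CACGTG, and all 3 sequences are read 5′ to 3′ on the plus strand.
Rrn3: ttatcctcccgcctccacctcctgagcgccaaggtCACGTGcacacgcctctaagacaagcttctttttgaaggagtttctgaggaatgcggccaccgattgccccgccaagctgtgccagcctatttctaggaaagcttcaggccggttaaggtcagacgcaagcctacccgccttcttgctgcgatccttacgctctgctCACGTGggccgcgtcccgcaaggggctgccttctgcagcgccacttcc
Nop2: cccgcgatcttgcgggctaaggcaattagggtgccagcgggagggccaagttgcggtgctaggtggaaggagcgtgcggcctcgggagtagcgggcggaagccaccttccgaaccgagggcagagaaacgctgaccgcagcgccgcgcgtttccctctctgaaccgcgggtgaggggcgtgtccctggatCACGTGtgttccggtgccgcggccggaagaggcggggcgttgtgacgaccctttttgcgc
Polr1a: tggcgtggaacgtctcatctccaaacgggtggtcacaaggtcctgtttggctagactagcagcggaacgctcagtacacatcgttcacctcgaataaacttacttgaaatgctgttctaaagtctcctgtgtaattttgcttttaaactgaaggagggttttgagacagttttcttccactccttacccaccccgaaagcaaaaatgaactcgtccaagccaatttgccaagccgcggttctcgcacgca

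The Rrn3 stretch is chr16:13780449-13780698, with E-boxes that open 215 and 48 bases before the start (positions -215 and -48). That of Nop2 is chr6:125131633-125131882, with an E-box at -60, and that of Polr1a is chr6:71908803-71909052. The 7 members with CACGTG in the window had log2 fold changes between -0.18 and 0.21 (median -0.02, 3 positive and 4 negative), and none was called.

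The BCAA-free libraries held between 14851240 and 30306697 counts and the standard-diet libraries between 16588662 and 38966911. Levels are given as CPM, the read count scaled to the TMM-adjusted library size. The markers fixed for MLL-AF9 leukaemia were all present, with Hoxa9 at 140 to 189 CPM in BCAA-free and 161 to 200 CPM in standard-diet libraries. The sum over the 9 leukaemia markers, mostly Mpo, was 8550 to 10100 CPM in BCAA-free libraries and 11000 to 13700 CPM in standard-diet libraries, without overlap. Macrophage markers (6 of 6 at 1 CPM or more) summed to 211 to 279 and 289 to 394 CPM, in the same order of diets, also without overlap, a sum made up mostly of Vcam1 (105 to 201 and 207 to 239 CPM) and Adgre1. Of the others, C1qa (4.01 to 6.44 and 2.04 to 3.72 CPM), C1qc (3.59 to 5.7 and 2.04 to 2.67 CPM) and Cd5l (5.41 to 8.29 and 2.22 to 4.88 CPM) were higher in every BCAA-free library than in any standard-diet library. Neutrophil markers (6 of 6) summed to 1410 to 5760 and 719 to 5910 CPM. B cell markers (5 of 6) summed to 25.6 to 105 and 8.22 to 16.0 CPM, and T cell markers (5 of 6) to 5.54 to 32.2 and 3.77 to 8.89 CPM. Erythroid markers summed to 4.6 to 42.9 and 3.65 to 12.1 CPM, and those of stroma and endothelium to 39.5 to 61.4 and 25.3 to 43.0 CPM. Megakaryocyte markers summed to 2.64 to 5.31 and 0.96 to 2.96 CPM, and NK cell markers to 1.27 to 5.58 and 0.72 to 4.9 CPM. In each of these sums the diets overlapped, and the highest library was a BCAA-free one. The part of these differences in the members' values was not tested.

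Of the 35 members none was called higher or lower in edgeR's quasi-likelihood test (adjusted p from 0.252 upward), where 0.756% of all tested genes were called (0.217% higher, 0.539% lower). DESeq2 and limma-voom called none either. DESeq2 called 2.71% of the 13970 genes with an adjusted p there, and limma-voom 0.479% of the 13364. At an unadjusted p under 0.05 there were 2 members, Fbl and Nop16, by each of the 3 tools, and both had positive log2 fold changes. That is 5.71% of the members, against 13.5% of all genes by edgeR (6.21% higher and 7.26% lower), 10.7% by DESeq2 and 13.1% by limma-voom. The DESeq2 share is over 19538 genes, without the filter on low counts. Of the 13364 filtered genes, 1923 had such a p in DESeq2. The members' log2 fold changes, BCAA-free minus standard diet, lay between -0.29 and 0.33, with 22 positive and 13 negative. Their median was 0.02, and that of all tested genes was 0.02 as well, with 52.6% of genes positive. The members' median was -0.0344 without BCAA-free replicate 1 and -0.0236 without standard-diet replicate 2. With upper-quartile scaling 28 members were positive and their median was 0.0549. The median of all tested genes moved as well, from 0.0153 with TMM scaling to 0.0494.

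**Figure D1:**
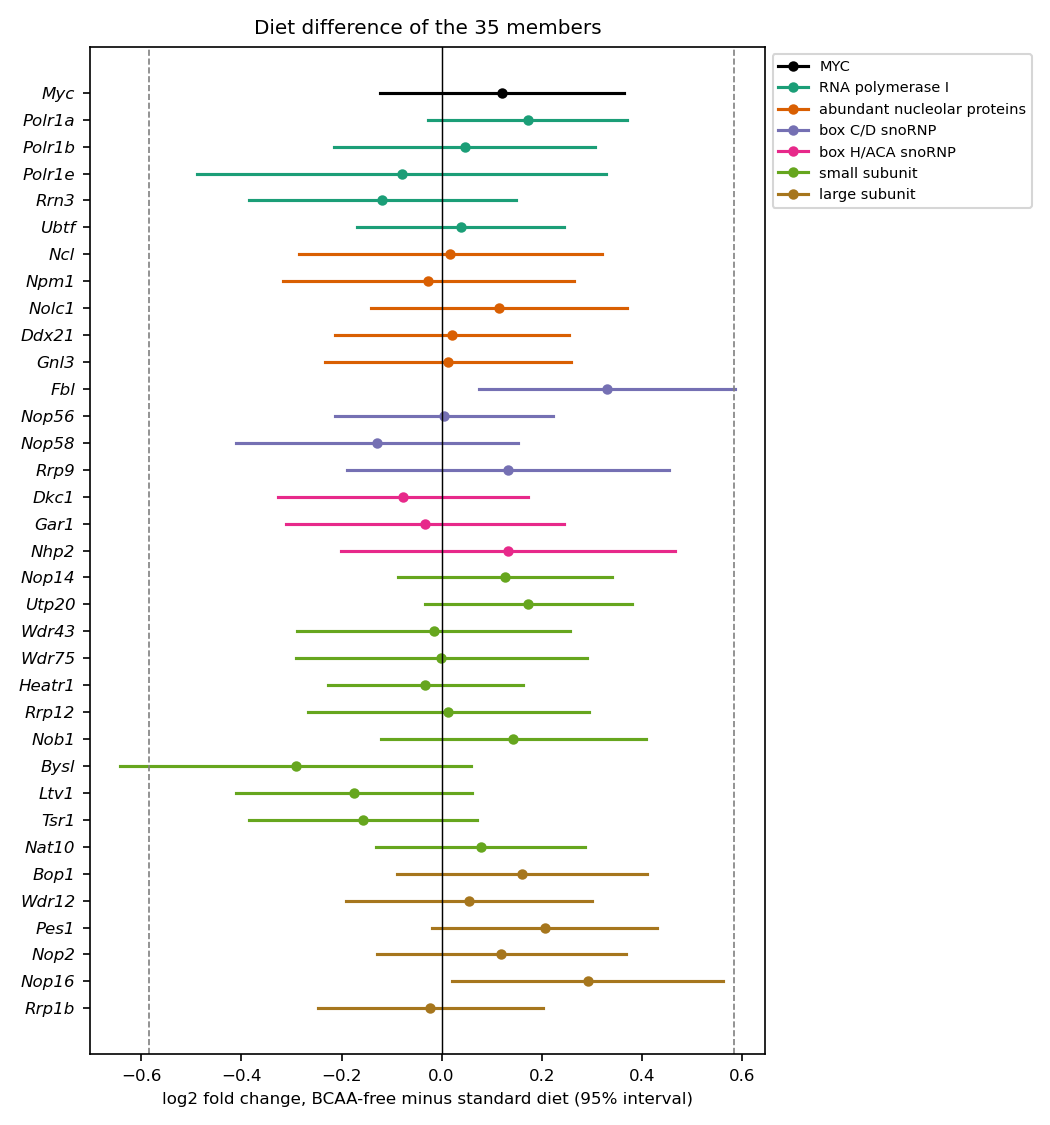
Log2 fold change of each of the 35 members (point) with its 95% interval (line), BCAA-free minus standard diet, coloured by role. Dashed lines mark a 1.5-fold change each way, and the intervals of Fbl at the upper and Bysl at the lower end pass them.

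Standard errors of the members' log2 fold changes were between 0.09 and 0.19. The intervals therefore leave room for small differences, and the lack of a call does not show that the diets gave equal levels. The interval reached past 1.5-fold only for Fbl (1.05 to 1.501-fold) and Bysl (0.641 to 1.04-fold). Among tested genes averaging 10 CPM or more, 74.7% had intervals inside that range, against 51.0% of all tested genes.

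Myc had 228, 240 and 309 CPM in the BCAA-free libraries, against 258, 248, 212, 250 and 225 CPM in the standard-diet libraries. BCAA-free replicate 3 was the highest library, and the other BCAA-free libraries lay inside the range of the standard diet. The log2 fold change was 0.12 (SE 0.12, 95% interval -0.12 to 0.36, edgeR adjusted p = 0.698). Without BCAA-free replicate 3 it was -0.0303. Myc (gene 17869) lies on chromosome 15.

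RNA polymerase I genes were represented by the largest subunit Polr1a, the second-largest subunit Polr1b, the subunit Polr1e, the initiation factor Rrn3 (TIF-IA) and the promoter factor Ubtf. None of the 5 was called, and 3 had positive values (median 0.04). Polr1a had 184, 168 and 181 CPM in BCAA-free libraries, against 163, 153, 148, 164 and 160 CPM in standard-diet libraries. All 3 BCAA-free libraries lay above all 5 standard-diet libraries, a separation upward that 4.17% of all tested genes showed. Polr1a averaged 178 ± 8.75 CPM in BCAA-free libraries (SD, n = 3) and 158 ± 6.71 CPM in standard-diet libraries (SD, n = 5), with a log2 fold change of 0.17 (SE 0.09, edgeR adjusted p = 0.446). Its exons overlap an annotated antisense RNA, Gm26628. Ubtf had 334, 288 and 329 CPM in BCAA-free libraries and 312, 282, 302, 323 and 324 CPM in standard-diet libraries, and the groups overlapped (log2 fold change 0.04, 95% interval -0.17 to 0.24).

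Rrn3, whose product links growth signals to RNA polymerase I initiation, averaged 106 ± 11.3 CPM in BCAA-free libraries and 115 ± 16.6 CPM in standard-diet libraries (log2 fold change -0.12, SE 0.13). Polr1b averaged 96.6 ± 17.5 and 93.5 ± 9.20 CPM, BCAA-free diet first. Polr1e was the member with the lowest level in CPM, at 22.2 ± 5.92 CPM in BCAA-free libraries and 23.4 ± 3.81 CPM in standard-diet libraries. It also had the widest scatter between libraries of a diet, with a coefficient of variation of 20.3%, against 3.97% for Heatr1 at the other end.

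Among the abundant nucleolar proteins were nucleolin (Ncl), nucleophosmin (Npm1), the snoRNP chaperone Nolc1, the RNA helicase Ddx21 and the GTPase nucleostemin (Gnl3). None of the 5 was called, and their log2 fold changes stayed between -0.03 and 0.12. Ncl had 3410, 2542 and 2360 CPM in BCAA-free libraries, against 2472, 2137, 3065, 2805 and 3207 CPM in standard-diet libraries. The highest library and 1 of the lower ones were both BCAA-free, so the libraries of a diet spread more than the diets differed (log2 fold change 0.02, SE 0.14, 95% interval -0.29 to 0.32). Npm1, which is mutated in many human leukaemias, averaged 813 ± 119 CPM in BCAA-free libraries and 828 ± 141 CPM in standard-diet libraries. Nolc1 had 381, 292 and 373 CPM in BCAA-free libraries and 343, 258, 333, 321 and 352 CPM in standard-diet libraries, with overlap (log2 fold change 0.12, edgeR adjusted p = 0.728). Ddx21 averaged 597 ± 78.6 and 589 ± 50.4 CPM and Gnl3 229 ± 23.8 and 227 ± 28.3 CPM, BCAA-free diet first.

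**Figure D2:**
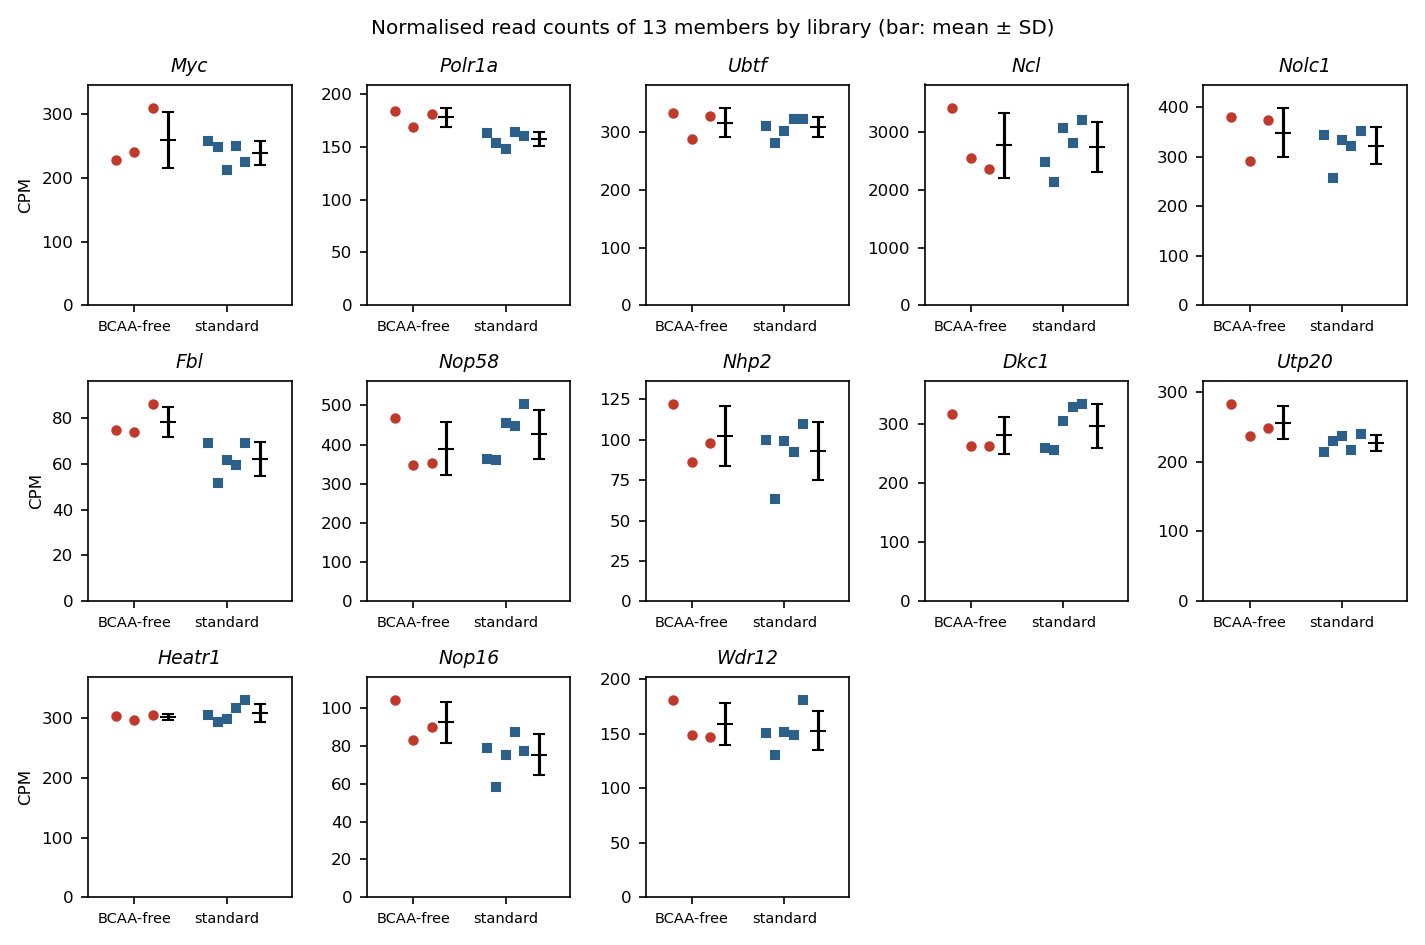
CPM of 13 members in each library, BCAA-free diet (red circles, 3 libraries) left of the standard diet (blue squares, 5 libraries), with the mean ± SD of each diet as a bar. Each axis starts at 0; only Polr1a and Fbl among these have all BCAA-free libraries above all standard-diet libraries.

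The box C/D snoRNPs, which methylate ribosomal RNA, were represented by the methyltransferase fibrillarin (Fbl), its core partners Nop56 and Nop58 and the U3-specific protein Rrp9. Fbl had the largest positive log2 fold change of the 35 and was not called. It had 74.7, 73.8 and 85.9 CPM in BCAA-free libraries, against 69.1, 51.6, 61.7, 59.2 and 69.2 CPM in standard-diet libraries. All 3 BCAA-free libraries lay above all 5 of the standard diet. The means were 78.1 ± 6.72 CPM (SD, n = 3) and 62.2 ± 7.39 CPM (SD, n = 5), a 1.26-fold ratio with a log2 fold change of 0.33 (SE 0.12, 95% interval 0.07 to 0.59, edgeR adjusted p = 0.252). Its adjusted p was 0.184 in DESeq2 and 0.258 in limma-voom, and its log2 fold change stayed positive in all 17 fits, between 0.252 and 0.372. These fits reuse the same libraries, and 12 members were positive in all of them. The value of 0.252 came without BCAA-free replicate 3, where the unadjusted edgeR p of Fbl was not under 0.05. Fbl and Polr1a were the only members whose diets did not overlap, and none had all BCAA-free libraries below the standard diet (4.68% of all genes).

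The core partners of fibrillarin had other values. Nop58 had 469, 349 and 352 CPM in BCAA-free libraries, against 364, 361, 455, 448 and 503 CPM in standard-diet libraries, with overlap and a log2 fold change of -0.13 (SE 0.13). Nop56 averaged 253 ± 22.3 CPM in BCAA-free libraries and 252 ± 19.1 CPM in standard-diet libraries. Rrp9 averaged 35.5 ± 4.64 and 32.4 ± 4.70 CPM, BCAA-free diet first. Whether Fbl differs from its partners in its response was not tested.

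The box H/ACA snoRNPs, which convert uridine to pseudouridine and also hold telomerase RNA, were represented by the pseudouridine synthase dyskerin (Dkc1) and its partners Gar1 and Nhp2. None of the 3 was called, and 1 had a positive value. Dkc1 had 318, 264 and 263 CPM in BCAA-free libraries, against 260, 256, 305, 329 and 334 CPM in standard-diet libraries (log2 fold change -0.08, SE 0.12). Nhp2 had 122, 86.3 and 97.7 CPM in BCAA-free libraries and 100, 63.4, 99.0, 92.6 and 110 CPM in standard-diet libraries (log2 fold change 0.13, SE 0.16). In both genes the diets overlapped, and standard-diet replicate 2 was the lowest library. Gar1 averaged 59.04 ± 5.05 CPM in BCAA-free libraries and 60.5 ± 8.76 CPM in standard-diet libraries.

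Factors of the small subunit were the largest group, with 11 members, none called, 5 positive and 6 negative (median -0.0007). They included the processome proteins Nop14, Utp20, Wdr43, Wdr75 and Heatr1, the export factors Rrp12 and Ltv1, the late factors Bysl and Tsr1, the endonuclease Nob1, which makes the last cut of 18S ribosomal RNA, and the RNA acetyltransferase Nat10. Utp20 had 282, 237 and 248 CPM in BCAA-free libraries, against 213, 229, 236, 217 and 239 CPM in standard-diet libraries, and the lowest BCAA-free library lay just inside the standard-diet range (log2 fold change 0.17, SE 0.1, edgeR adjusted p = 0.463). Heatr1 had 303, 297 and 306 CPM in BCAA-free libraries and 306, 293, 299, 317 and 330 CPM in standard-diet libraries. It was the steadiest member, and its interval ran from -0.23 to 0.16.

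The 3 most negative log2 fold changes of the 35 were those of the small-subunit factors Bysl, Ltv1 and Tsr1. Bysl had the lowest log2 fold change of the 35, at -0.29 (SE 0.17, edgeR adjusted p = 0.464), with 40.7 ± 10.5 CPM in BCAA-free libraries and 49.8 ± 6.32 CPM in standard-diet libraries. BCAA-free replicate 2 alone, at 28.7 CPM, lay below all other libraries, and without it the log2 fold change of Bysl was -0.103 and that of Ltv1 -0.0941. Ltv1 averaged 94.6 ± 10.5 CPM in BCAA-free libraries and 107 ± 8.99 CPM in standard-diet libraries, and Tsr1 averaged 103 ± 12.3 and 115 ± 8.32 CPM. Their log2 fold changes were -0.18 and -0.16, and neither was called. Nob1 averaged 52.8 ± 7.55 CPM in BCAA-free libraries and 47.9 ± 3.02 CPM in standard-diet libraries, and the values of Nop14, Wdr43, Wdr75, Rrp12 and Nat10 stayed between -0.02 and 0.13 in log2 fold change.

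The large-subunit factors were Bop1, Pes1 and Wdr12, which form the PeBoW complex, the RNA methyltransferase Nop2, and Nop16 and Rrp1b. None of the 6 was called, and 5 had positive values (median 0.14). Nop16 had 104, 83.1 and 89.8 CPM in BCAA-free libraries, against 78.8, 58.1, 75.3, 87.3 and 77.0 CPM in standard-diet libraries. Standard-diet replicate 4 lay above the lowest BCAA-free library, so the groups overlapped (log2 fold change 0.29, SE 0.13, 95% interval 0.02 to 0.56, edgeR adjusted p = 0.333). Wdr12 had 181, 149 and 147 CPM in BCAA-free libraries and 151, 131, 152, 149 and 181 CPM in standard-diet libraries (log2 fold change 0.06). Its PeBoW partner Pes1 averaged 155 ± 19.5 and 134 ± 8.76 CPM and Bop1 averaged 126 ± 16.9 and 113 ± 12.5 CPM, BCAA-free diet first, with log2 fold changes of 0.21 and 0.16 that did not pass. Nop2 averaged 146 ± 19.8 CPM in BCAA-free libraries and 135 ± 14.01 CPM in standard-diet libraries, and Rrp1b 119 ± 14.7 and 121 ± 7.64 CPM.

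Standard-diet replicate 2 was the lowest of the 8 libraries for 22 of the 35 members, where it was lowest for 18.8% of all tested genes. BCAA-free replicate 1 was the highest for 16 members, where it was highest for 14.3% of all genes. The members' median deviation from their own mean over libraries was 0.16, -0.11 and 0.04 on the log2 scale in BCAA-free replicates 1, 2 and 3, and -0.0006, -0.19, -0.01, 0.05 and 0.10 in standard-diet replicates 1 to 5. Over all genes it stayed between -0.01 and 0.03 in every library. Both diets thus held a library in which the members were low and one in which they were high.

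**Figure D3:**
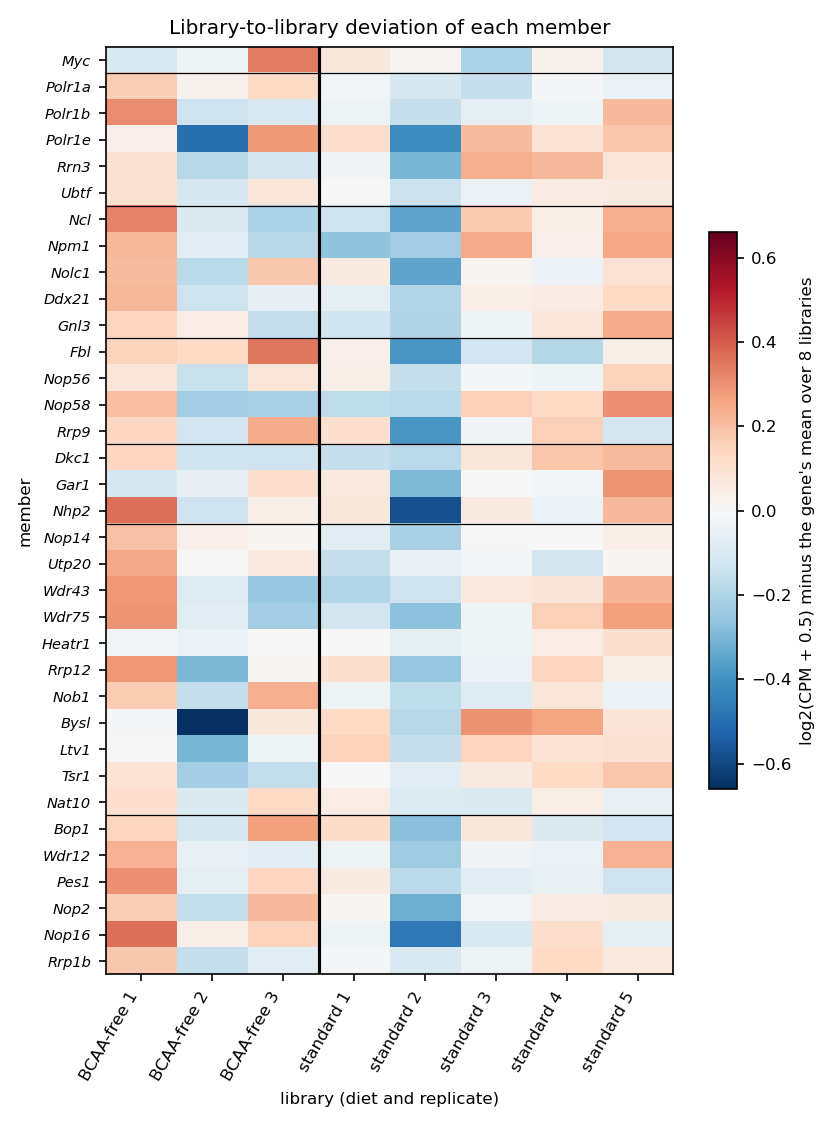
Deviation of each member in each library from its own mean over the 8 libraries, as log2(CPM + 0.5), with the 3 BCAA-free libraries left of the black line and the 5 standard-diet libraries right of it. The columns of standard-diet replicate 2 and BCAA-free replicate 2 are mostly blue (lower) and that of BCAA-free replicate 1 mostly red (higher).

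The summed level of the 35 members was 10667, 8539.5 and 8777 CPM in BCAA-free libraries, against 8665, 7792, 9698, 9467 and 10273 CPM in standard-diet libraries, which is 0.779% to 1.07% of a scaled library. The means were 9328 ± 1166 CPM (SD, n = 3) and 9179 ± 967 CPM (SD, n = 5), and the diets overlapped. Ncl and Npm1 made up 4357, 3316 and 3079 CPM of this on the BCAA-free diet and 3148, 2832, 4028, 3639 and 4179 CPM in standard-diet libraries. In bulk samples fewer cells with a transcript and less of it per cell cannot be told apart.

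Levels can be compared between genes only per length. Per kilobase of coding sequence, over all 8 libraries, Ncl led with 1296 CPM, ahead of Npm1 with 939, Nop58 with 309.6, Ddx21 with 232 and Nhp2 with 210.2 CPM. Myc stood at 181 CPM per kilobase of coding sequence, and the lowest were Polr1e with 17.6 and Rrp12 with 21.1. Reads from untranslated regions count in these values, so genes with long ones read high. Per kilobase of the annotated principal transcript Npm1 (504 CPM) stood above Ncl (335 CPM), so their order depends on the length used. The transcript taken for Ncl has 8202 bases, of which 2121 are coding, and that for Npm1 has 1633, of which 876 are coding. Whether the cells use that long Ncl transcript was not tested.

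Several members are themselves hosts of small nucleolar RNAs, which are cut from the introns of other genes. In GENCODE M21, 7 of the 35 members (20.0%) had at least 1 annotated snoRNA gene inside them on the same strand, against 218 of 11624 tested protein-coding genes (1.88%). They were Ncl, Gnl3, Nop56, Nop58, Dkc1, Wdr43 and Tsr1, with 21 snoRNA genes in all, among them Snord82 in Ncl, Snord110 and Snord57 in Nop56, Snord11 in Nop58 and Snord53 and Snord92 in Wdr43. Their log2 fold changes lay between -0.16 and 0.02 (median -0.02, none called), while the 28 other members had a median of 0.07. The libraries were made from polyadenylated RNA, and snoRNA levels were not analysed here.

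The other genes of the pathway were taken from lists that overlap in 5 genes. For comparison with their counts, edgeR called 0.756% of all tested genes and 52.6% had positive values. An unadjusted edgeR p under 0.05 was found for 13.5% (6.21% higher, 7.26% lower). Of 102 further pre-ribosome factors none was called by edgeR, 70 had positive values (median 0.04), 9 had an unadjusted p under 0.05, and DESeq2 called 1 and limma-voom none. Ddx49, a nucleolar RNA helicase of small-subunit processing, had the smallest p and is that DESeq2 call. It had 46.4 ± 4.18 CPM in BCAA-free libraries and 34.07 ± 2.41 CPM in standard-diet libraries (log2 fold change 0.44, edgeR adjusted p = 0.120, DESeq2 adjusted p = 0.0365). Of the 16 other RNA polymerase I genes none was called by edgeR, 8 were positive (median 0.01), 2 had an unadjusted p under 0.05, and DESeq2 called 1. That was Polr1c, a subunit shared by RNA polymerases I and III, with 53.3 ± 2.15 CPM in BCAA-free libraries and 37.2 ± 3.51 CPM in standard-diet libraries. Its log2 fold change was 0.52 (SE 0.12), its adjusted p 0.0610 in edgeR, 0.00703 in DESeq2 and 0.0768 in limma-voom, and all 3 BCAA-free libraries were above all 5 standard-diet libraries.

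RNA polymerase III makes 5S ribosomal RNA and transfer RNA. Its list of 22 genes left out the shared subunit Polr1c, which DESeq2 called. Of the 22, none was called by any of the 3 tools, the median was -0.0012, and 1 gene had an unadjusted p under 0.05. That was Maf1, the repressor of this polymerase, with 59.0 ± 2.92 CPM in BCAA-free libraries and 44.5 ± 4.88 CPM in standard-diet libraries (log2 fold change 0.41, edgeR adjusted p = 0.147). The nuclear exosome, which trims ribosomal RNA precursors, had none called among 14 by any tool and 1 at an unadjusted p under 0.05, Exosc5, at 59.5 ± 5.83 CPM in BCAA-free libraries and 49.3 ± 5.56 CPM in standard-diet libraries (edgeR adjusted p = 0.358).

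The partners and regulators of MYC had 18 tested genes of 21, none called by any of the 3 tools and 1 at an unadjusted p under 0.05 (median log2 fold change 0.08). It was Ruvbl1, an AAA+ ATPase that helps assemble snoRNPs and is a MYC cofactor, with 74.5 ± 7.32 CPM in BCAA-free libraries and 56.8 ± 5.15 CPM in standard-diet libraries (log2 fold change 0.39, edgeR adjusted p = 0.144). Of 24 known MYC targets outside the nucleolus none was called by any tool and 18 were positive (median 0.14), where 52.6% of all tested genes were. An unadjusted p under 0.05 was found for 4 of them, all higher, and for 13.5% of all tested genes (6.21% higher). The smallest p was that of Cad, the enzyme that starts pyrimidine synthesis, with 261 ± 8.42 CPM in BCAA-free libraries and 222 ± 11.7 CPM in standard-diet libraries (edgeR adjusted p = 0.290). The genes that link the free 5S ribonucleoprotein to p53 had none called among 10 by any tool and 2 at an unadjusted p under 0.05 (median 0.20), with Nop53 at 138 ± 2.44 CPM in BCAA-free libraries and 113 ± 15.7 CPM in standard-diet libraries (edgeR adjusted p = 0.290).

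Cytosolic ribosomal protein genes, the cargo of these assembly factors, had none called by any of the 3 tools. In edgeR 18 of 79 had an unadjusted p under 0.05, all of them higher on the BCAA-free diet. Of all tested genes 13.5% had such a p (6.21% higher, 7.26% lower). Of the 79, 78 had positive log2 fold changes with a median of 0.23, where 52.6% of all tested genes were positive, beside 22 of 35 and 0.02 for the members and 70 of 102 and 0.04 for the other pre-ribosome factors. The difference between these lists was not tested.

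**Figure D4:**
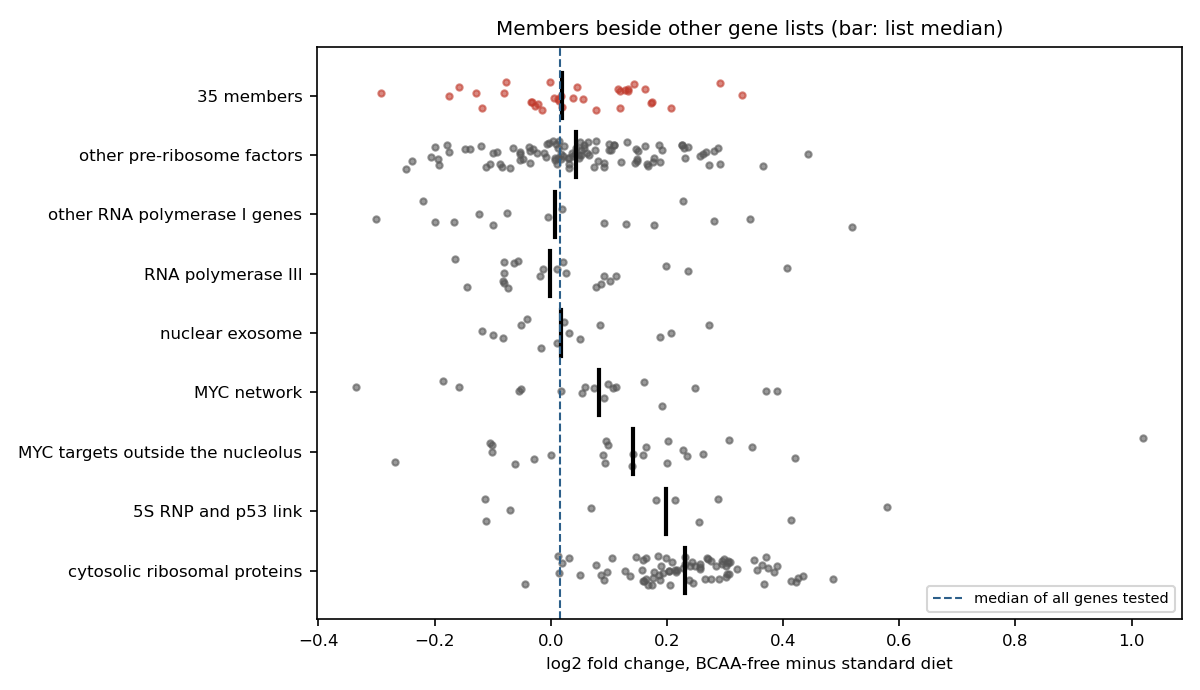
Log2 fold change of each tested gene (points), BCAA-free minus standard diet, for the 35 members (red) and 8 other lists (grey), with the list median as a black bar and the median of all tested genes as a dashed line. Points are spread vertically at random for visibility. The members' median of 0.02 lies on the dashed line, and that of the cytosolic ribosomal proteins is 0.23.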

How the data were processed

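Polyadenylated RNA was sequenced from Kapa mRNA HyperPrep libraries with paired reads of 38 bp, as the labels' protocols state. The authors deposited raw counts per Entrez gene and library, without normalization. The submitters' processing notes name the build mm10 with featureCounts and Cell Ranger, and give neither their versions nor their roles. The aligner, the strand setting and the rule for multi-mapping reads were not given in the sources used here. Values of members with processed pseudogenes, such as Npm1, are therefore uncertain, as are those of the 12 members whose exons overlap exons of a gene on the opposite strand. Symbols came from the RefSeq table of GRCm38.p6, which matched 25275 of 27179 identifiers. Transcript and coding lengths and snoRNA genes came from GENCODE M21, and promoters from RefSeq; the bases after the start were found in the sense transcript for 28 of 30 genes.

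Genes were tested with edgeR's quasi-likelihood method (edgeR 4.0.16, R 4.3.3) with robust dispersion, TMM factors, diet as the term, and the default filter (minimum count 10, total 15). Benjamini-Hochberg adjustment ran over all 13364 genes, with a threshold of 0.05. Standard errors are the log2 fold change over the square root of F, and 95% intervals use the test's degrees of freedom. Alternatives were DESeq2 1.42.0, limma-voom (limma 3.58.1), other scalings, no filter, a non-robust fit, a replicate block and fits without libraries. The labels call the libraries biological replicates.

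Members and lists were chosen with earlier results of these data known. Values in every library are given for Myc and, in each role group, for the member with the smallest p and that with the highest level. Of the other lists the gene with the smallest p is named, except for 1 list, where it is not reported here.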

Additional observations from a re-analysis of the deposited data

Results flagged for a closer look

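In the standard-diet group of 5 libraries, 3 members had a library far from the other 4 in CPM, by the gap to its nearest neighbour as a share of the group's range (limit 0.71). The share was 0.785 for Polr1e (24.4, 16.8, 26.1, 24.1 and 25.7 CPM in replicates 1 to 5), 0.784 for Ltv1 (113, 91.1, 112, 108 and 109 CPM) and 0.765 for Nop2 (139, 110, 136, 143 and 144 CPM). The distant library was replicate 2 in each. Of 36 such groups examined, chance flags about 1 in 20.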

How the results depend on the processing

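None of the 35 members was called in any of the 17 fits, with a smallest adjusted p between 0.184 (DESeq2) and 0.596 (replicate block). Leaving out each library in turn gave 0 called members each time and a median log2 fold change of the members between -0.0344 and 0.0935, where the lowest came without BCAA-free replicate 1 and the highest without BCAA-free replicate 2; all stayed within the spread of that median between libraries. Over all genes those fits called 32 to 134, against 101 with all libraries, 237 with no filter, 378 with DESeq2 and 64 with limma-voom. With the replicate block the members' median was 0.106 with 0 called, and 0 of all genes were called; deviations of same-numbered libraries correlated at -0.081, -0.052 and -0.298, so the numbers were not taken as pairs and a lost call there is not read as a weaker effect. Of 560 pairs of a member and an alternative, 56 changed the sign of an uncalled log2 fold change, in 18 members; 12 members were positive and 5 negative throughout. Another scaling moved the median of all genes by at most 0.0341. With 3 BCAA-free libraries, differences smaller than the 95% intervals were not detectable at this depth and number of libraries.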
